A study of Mus musculus with 7 samples.

Results

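Photoreceptor fate in the mouse retina is set by a small group of transcription factors, and the expression of 10 of them was followed here in E16 retinas of embryos with both, 1 or neither copy of *Ptbp1* left intact by Cre. The genes are *Otx2*, *Crx* and *Rorb*, which act upstream in photoreceptor precursors, *Nrl* and *Nr2e3* of rods, *Thrb* and *Rxrg* of cones, and *Samd7*, *Samd11* and *Mef2d*, which work with them. They were taken by symbol from the gene count table, 10 of the 48440 genes listed, and each symbol matched 1 row. Each of the 10 had at least 52 counts in every library and passed the filter on low counts.

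Retinas from E16 embryos were pooled by genotype and sequenced as bulk RNA. All groups carry a *Chx10-Cre* transgene, which expresses Cre in retinal progenitors. The wildtype group (WT, genotype Chx10Cre) is 1 library. The heterozygous group (Het, Chx10-Cre;Ptbp1lox/WT) and the homozygous group (KO, Chx10-Cre;Ptbp1lox/lox) are 3 libraries each. In these, loxP sites flank the *Ptbp1* promoter and the first exon, so that cells outside the Cre lineage keep the gene. Each library came from several pooled retinas, so the spread between libraries is a spread between pools. Fewer cells of a type and less RNA per cell cannot be told apart in bulk samples.

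OTX2 is a homeodomain protein that commits progenitors leaving the cell cycle to photoreceptor (and later bipolar) fate, and it switches on the related factor CRX, which activates most photoreceptor genes. The orphan nuclear receptor RORβ acts in the same precursors and is needed for *Nrl*. The leucine zipper protein NRL then directs precursors to rods and induces the nuclear receptor NR2E3, which activates rod genes and represses cone genes. Precursors without NRL become cones, whose opsin choice depends on the thyroid hormone receptor of *Thrb* and on the retinoid X receptor of *Rxrg*. SAMD7 and SAMD11 are sterile alpha motif proteins of a Polycomb complex that silences non-rod genes in rods, and MEF2D binds photoreceptor enhancers together with CRX. In the mouse, most cones are born before this age, and rod birth peaks around birth.

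The *Ptbp1* level followed the labels. It was 381 CPM (counts per 1000000 of the TMM-scaled library total) in WT, 210 to 234 CPM in Het, and, in KO1 to KO3 in turn, 27.9, 6.04 and 46.9 CPM. In KO the mean was 0.122 times that of Het. Het1 stood apart from the other libraries in markers of pigmented cells and of muscle, whose values are given with the marker lists at the end. The 7 libraries held 120593979 to 171117305 counts on genes. Among the 9 markers of embryonic retina, the eye field factor *Pax6* was at 581 CPM in WT, 544 to 572 CPM in Het and 514 to 566 CPM in KO. Summed over the 9, the level was 2710 CPM in WT, 2546 to 2692 CPM in Het and 2472 to 2520 CPM in KO. Every KO library lay below every Het library in 4 of the 9 and above in 2, against 17.7% and 18.6% of all genes tested. Of the 20019 genes tested, 7.22% were differentially expressed between Het and KO by edgeR's quasi-likelihood test, with a limit of 0.05 on the adjusted p (Benjamini-Hochberg) and of 1.2-fold, up or down, on the change. By this test 0 of the 9 retina markers were higher in KO and 1 lower, against 4.01% and 3.21% of all genes. At an unadjusted p below 0.05 (edgeR), 1 was higher and 4 lower, against 29.7% of all genes in either direction.

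Between Het and KO, 4 of the 10 factors were differentially expressed, all higher in KO: *Nr2e3*, *Samd7*, *Nrl* and *Samd11*. Over all genes tested, 4.01% were called higher in KO and 3.21% lower. At an unadjusted p below 0.05, 6 of the 10 were higher and 0 lower, against 29.7% of all genes in either direction. Both rod factors were among the 4 called, and neither cone factor nor any of the upstream factors was. In 6 of the 10, namely these 4 with *Crx* and *Mef2d*, every KO library lay above every Het library, as in 18.6% of all genes tested, and in the other 4 the groups overlapped. Without Het2 only *Samd7* was called, and without Het3 2 of the 10 were. Groups that did not overlap in either direction made up 36.3% of all genes tested, 17.7% with KO lower. The median log2 fold change was 0.19 over the 10 genes and -0.0047 over all genes tested. For 1 gene at a time, 3 libraries on each side limit an exact two-sided permutation p to 0.1 at the lowest, the value found for these 6.

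**Figure D1:**
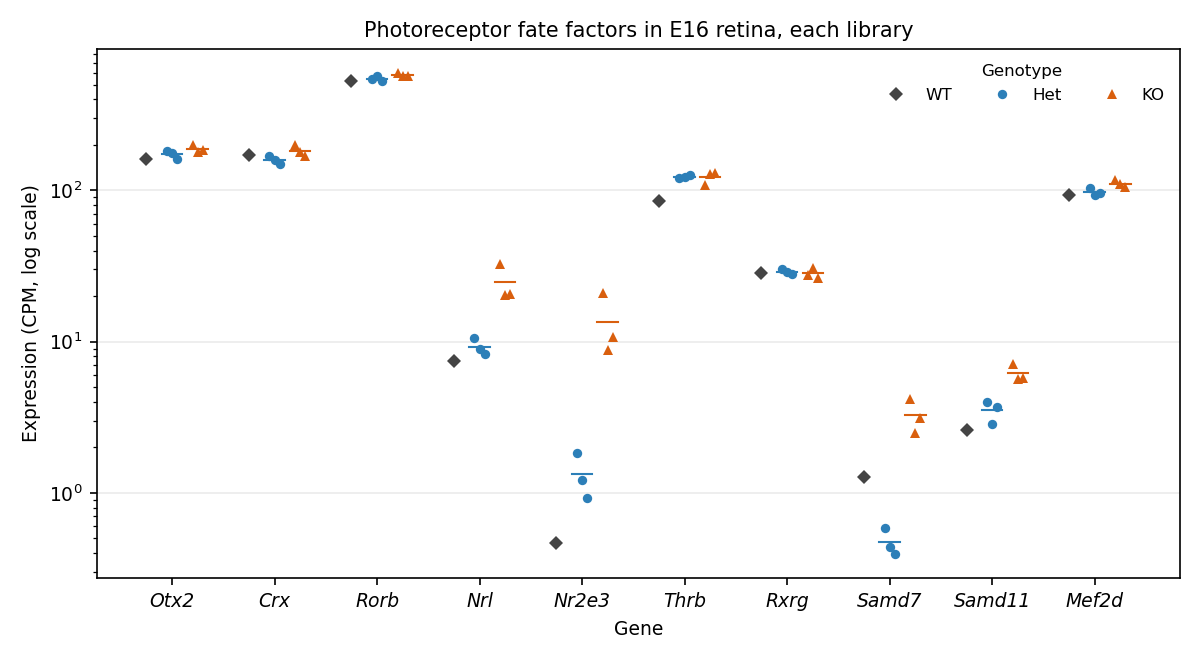
Expression of the 10 factors (CPM, log scale) in the WT library (diamond), the 3 Het libraries (circles) and the 3 KO libraries (triangles), with lines at the means of Het and KO. *Nrl*, *Nr2e3*, *Samd7* and *Samd11* stand higher in all 3 KO libraries, while *Thrb* and *Rxrg* overlap between Het and KO.

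The sequences before the transcription starts of the 4 genes that rose are shown with that of *Crx*, the factor that acts directly upstream of many photoreceptor genes, because these genes moved together in 1 direction. Each is the 250 bases before the RefSeq start (GRCm38.p6), read on the strand of the gene. Capitals mark TAATCC or its reverse complement GGATTA, the letters that the homeodomains of OTX2 and CRX are known to bind.
*Crx* (chr7:15879956-15880205, minus strand): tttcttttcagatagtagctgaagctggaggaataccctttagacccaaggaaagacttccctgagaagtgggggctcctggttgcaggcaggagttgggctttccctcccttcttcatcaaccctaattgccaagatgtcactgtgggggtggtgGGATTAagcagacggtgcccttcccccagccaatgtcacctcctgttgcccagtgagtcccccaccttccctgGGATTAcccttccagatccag
*Nrl* (chr14:55524253-55524502, minus strand): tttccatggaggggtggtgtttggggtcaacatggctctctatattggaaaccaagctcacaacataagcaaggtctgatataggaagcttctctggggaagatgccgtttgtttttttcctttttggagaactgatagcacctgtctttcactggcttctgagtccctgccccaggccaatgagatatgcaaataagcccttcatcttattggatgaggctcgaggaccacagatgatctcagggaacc
*Nr2e3* (chr9:59950080-59950329, minus strand): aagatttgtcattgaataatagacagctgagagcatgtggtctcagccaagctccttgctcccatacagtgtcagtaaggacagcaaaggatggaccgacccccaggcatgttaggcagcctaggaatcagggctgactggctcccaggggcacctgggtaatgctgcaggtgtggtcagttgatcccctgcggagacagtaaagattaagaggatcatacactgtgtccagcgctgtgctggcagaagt
*Samd7* (chr3:30746043-30746292, plus strand): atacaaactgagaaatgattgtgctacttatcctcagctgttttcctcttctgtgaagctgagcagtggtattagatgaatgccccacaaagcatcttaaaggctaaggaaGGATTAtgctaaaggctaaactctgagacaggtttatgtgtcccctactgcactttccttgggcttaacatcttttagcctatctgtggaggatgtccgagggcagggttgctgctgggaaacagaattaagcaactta
*Samd11* (chr4:156255343-156255592, minus strand): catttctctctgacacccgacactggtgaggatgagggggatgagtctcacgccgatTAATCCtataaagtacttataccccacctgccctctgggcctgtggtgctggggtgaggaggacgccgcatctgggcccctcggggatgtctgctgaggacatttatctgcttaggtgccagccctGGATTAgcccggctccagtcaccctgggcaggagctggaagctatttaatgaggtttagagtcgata

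All 10 factors were found in the RefSeq table, with 16 annotated starts. The TAATCC letters, searched on both strands, were present before 5 of the 16 starts (31.2%) and before 6.25% of all 32851 starts. These 5 belong to *Otx2*, *Crx*, *Thrb*, *Samd7* and *Samd11*. Counted from -1 at the base before the start, and by the leftmost base of the letters, they lay at -94 and -21 in *Crx*, at -193 and -67 in *Samd11* and at -139 in *Samd7*. *Nrl* and *Nr2e3*, the rod factors, had none in this window. TGCTGA, read on both strands, one arm of the site bound by NRL and other Maf proteins, was present before 4 of the 16 starts (25%), against 16.1% of all starts, and among the 4 genes that rose it was found in *Samd11* alone, at -102. The E-box CAGCTG, which is its own reverse complement and is read by bHLH factors, was present before 3 of the 16 (18.8%), against 13% of all starts, and lay at -227 in *Nr2e3* and at -216 in *Samd7* among the genes that rose. These matches describe the letters only.

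*Nr2e3* (ENSMUSG00000032292.8, chromosome 9 from 59942771 to 59960659, minus strand), which represses cone genes in rods, showed the largest change of the 10. It was measured at 0.464 CPM in the WT library, then 1.85, 1.21 and 0.923 CPM in Het1 to Het3, against 20.8, 8.77 and 10.7 CPM in KO1 to KO3. The lowest KO library was far above the highest Het library, and the WT library, with 69 counts, was below all of Het. The KO mean of 13.4 ± 6.47 CPM (SD, n = 3) was 10.1 times the Het mean of 1.33 ± 0.474 CPM (SD, n = 3). The log2 fold change was 3.34 (standard error 0.415, 95% interval 2.34 to 4.33, adjusted p = 0.00831, edgeR), the 27th highest of the 20019 genes tested. Without Het2 the adjusted p was 0.0511 (edgeR) at a log2 fold change of 3.27.
*Nrl* (ENSMUSG00000040632.15, chromosome 14 from 55518978 to 55524981, minus strand), the factor that decides for rod fate, was higher in level than *Nr2e3* and changed less. WT held 7.49 CPM of it, Het1 to Het3 held 10.5, 8.96 and 8.30 CPM, and KO1 to KO3 held 32.8, 20.4 and 20.8 CPM. Het and KO libraries were well apart, and WT was again the lowest. The log2 fold change was 1.41 (standard error 0.202, 95% interval 0.93 to 1.90, adjusted p = 0.0120, edgeR), from a Het mean of 9.26 ± 1.14 CPM to a KO mean of 24.7 ± 7.03 CPM (SD, n = 3 each). It was not called without Het2 (adjusted p = 0.0657, edgeR) or without Het3 (adjusted p = 0.0534, edgeR).

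*Samd7* (ENSMUSG00000051860.13, chromosome 3 from 30746293 to 30767174, plus strand) rose 6.92-fold. It was at 0.589, 0.436 and 0.395 CPM in Het1 to Het3, which are 100, 52 and 60 counts, and at 4.20, 2.48 and 3.14 CPM in KO1 to KO3. In the WT library it was at 1.27 CPM, above every Het library and below every KO library, so the order of the genotypes differed from that of the rod factors. The log2 fold change between Het and KO was 2.79 (standard error 0.255, 95% interval 2.18 to 3.39, adjusted p = 0.00412, edgeR). It was the only factor called in each of the 15 alternatives to the processing.
*Samd11* (ENSMUSG00000096351.1, chromosome 4 from 156246966 to 156255657, minus strand) rose less, by 0.81 on the log2 scale (standard error 0.158, 95% interval 0.43 to 1.19, adjusted p = 0.0260, edgeR). It was at 2.61 CPM in the WT library, then 4.01, 2.85 and 3.68 CPM in Het1 to Het3, against 7.09, 5.65 and 5.77 CPM in KO1 to KO3. The KO libraries were all higher than the Het libraries, and WT was the lowest of the 7. Its exons overlap those of *Noc2l*, named for its position, on the opposite strand, which was at 103 ± 3.69 CPM in Het and lower in KO, at 84.8 ± 3.88 CPM (SD, n = 3 each, log2 fold change -0.28, adjusted p = 0.0156, edgeR). Whether the counting used strand is not given in the sources used here, so the share of *Noc2l* reads in the *Samd11* counts is unknown. *Samd11* was not called without Het2, Het3, KO1 or KO2, at adjusted p from 0.0550 to 0.0831 (edgeR).

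Of the upstream factors, *Crx* (ENSMUSG00000041578.15, chromosome 7 from 15865947 to 15879968, minus strand) was at 173 CPM in the WT library, then 168, 158 and 149 CPM in Het1 to Het3, against 198, 178 and 169 CPM in KO1 to KO3. KO3 exceeded Het1 only slightly, and WT lay within the range of KO. The KO mean was 14.7% above the Het mean, a log2 fold change of 0.20 (standard error 0.0697, 95% interval 0.03 to 0.36, adjusted p = 0.116, edgeR). DESeq2 gave an adjusted p of 0.0308, with the change still under the 1.2-fold limit.
*Otx2* (ENSMUSG00000021848.15, chromosome 14 from 48657677 to 48673819, minus strand), which stands at the head of this network, was at 162 CPM in the WT library, then 183, 175 and 162 CPM in Het1 to Het3, against 201, 180 and 185 CPM in KO1 to KO3. Het1 was higher than KO2, so the groups overlapped. Between the groups the log2 fold change was 0.12 (standard error 0.0586, 95% interval -0.02 to 0.26, adjusted p = 0.216, edgeR).
*Rorb* (ENSMUSG00000036192.15, chromosome 19 from 18930605 to 19111196, minus strand) was at 531 CPM in the WT library, then 543, 571 and 531 CPM in Het1 to Het3, against 595, 569 and 575 CPM in KO1 to KO3. Het2 lay within the KO range, and the log2 fold change was 0.08 (standard error 0.0401, 95% interval -0.02 to 0.18, adjusted p = 0.235, edgeR).

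The cone factors differed by less than the spread between libraries. *Thrb* (ENSMUSG00000021779.16, chromosome 14 from 17660261 to 18038090, plus strand) was at 121, 123 and 126 CPM in Het1 to Het3, against 108, 129 and 130 CPM in KO1 to KO3. KO1 was below and KO2 and KO3 were above the whole Het group, and the log2 fold change was -0.01 (95% interval -0.18 to 0.15, adjusted p = 0.923, edgeR). The WT library stood apart from the other 6, at 85.4 CPM, and the Het mean was 1.44 times that value, a difference with no replicate check. Gene counts do not separate the 2 receptors made from this gene, TRβ1 and TRβ2, of which the second marks cones.
*Rxrg* (ENSMUSG00000015843.10, chromosome 1 from 167598384 to 167639623, plus strand) encodes a partner of other nuclear receptors. It was at 28.3 CPM in the WT library, then 30.3, 28.8 and 27.9 CPM in Het1 to Het3, against 27.7, 30.7 and 26.4 CPM in KO1 to KO3. Its log2 fold change was -0.04 (95% interval -0.19 to 0.12, adjusted p = 0.748, edgeR). For both cone factors the 95% interval lay within a change of 1.2-fold in either direction.
*Mef2d* (ENSMUSG00000001419.17, chromosome 3 from 88142372 to 88172086, plus strand), a MADS box factor that many tissues express, was at 93.0 CPM in the WT library, then 104, 93.2 and 95.7 CPM in Het1 to Het3, against 118, 110 and 106 CPM in KO1 to KO3. The lowest KO library was just above the highest Het library. The log2 fold change was 0.19 (standard error 0.0554, 95% interval 0.05 to 0.32, adjusted p = 0.0774, edgeR), and DESeq2 gave an adjusted p of 0.0194 at a change under the 1.2-fold limit.

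**Figure D2:**
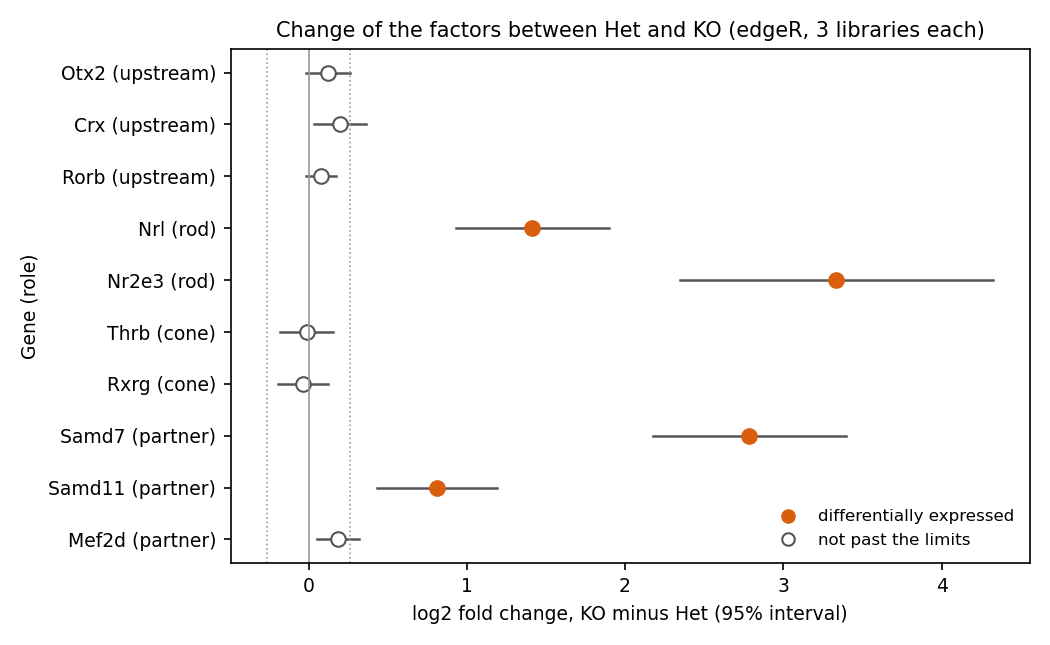
log2 fold change of each factor between Het and KO (edgeR, 3 libraries each), with its 95% interval. Filled points are differentially expressed, and dotted lines mark a change of 1.2-fold up or down. *Nrl*, *Nr2e3*, *Samd7* and *Samd11* lie to the right of the limit with their whole intervals.

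Per kilobase of exon, the factors fell into abundant and rare genes. Levels are given as RPKM, the CPM divided by the summed exon length in kilobases. *Crx*, *Rorb* and *Otx2* were at 50.2 ± 3.03, 49.5 ± 1.84 and 41.1 ± 2.46 RPKM in Het (SD, n = 3 each), and *Crx* and *Rorb* changed places among the libraries. *Thrb*, *Mef2d* and *Rxrg* followed, at 16.7 ± 0.316, 16.3 ± 0.926 and 12.6 ± 0.526 RPKM. Of these, the first and the second did not differ beyond their spread. The 4 genes that rose in KO were the 4 lowest in Het, with *Nrl* at 1.63 ± 0.200, *Samd11* at 0.980 ± 0.168, *Nr2e3* at 0.394 ± 0.141 and *Samd7* at 0.118 ± 0.0255 RPKM. In KO they were still the 4 lowest, but *Nrl* at 4.34 ± 1.24 RPKM and *Nr2e3* at 3.99 ± 1.92 RPKM (SD, n = 3 each) no longer differed beyond their spread. Among the genes tested, *Nr2e3* moved from above 29.7% of the genes in Het to above 56.8% in KO, and *Nrl* from 44.3% to 58.3%.

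Within a library, counts of 1 gene over another do not depend on the scaling between libraries, so each factor was also set against *Crx*. Per 100 counts of *Crx*, *Nrl* was at 4.34 in WT, 5.57 to 6.25 in Het and 11.5 to 16.5 in KO. *Nr2e3* was at 0.269 in WT, 0.619 to 1.10 in Het and 4.92 to 10.5 in KO. The rod factors thus stood higher against *Crx* in every KO library, 2.30 times for *Nrl* and 8.77 times for *Nr2e3* at the means. *Samd7* was 6.03 times and *Samd11* 1.53 times as high, again with no overlap. *Otx2*, *Rorb*, *Thrb* and *Mef2d* kept ratios to *Crx* that overlapped between Het and KO, from 0.870 to 0.993 times at the means. *Rxrg* was lower against *Crx* in KO, at 14.0 to 17.3 per 100 counts, than in Het, at 18.0 to 18.7, but against *Otx2* its groups overlapped. The ratio within the rod pair changed too: per 100 counts of *Nrl*, *Nr2e3* was at 6.19 in WT, 11.1 to 17.6 in Het and 42.9 to 63.5 in KO. No test was made on these ratios.

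**Figure D3:**
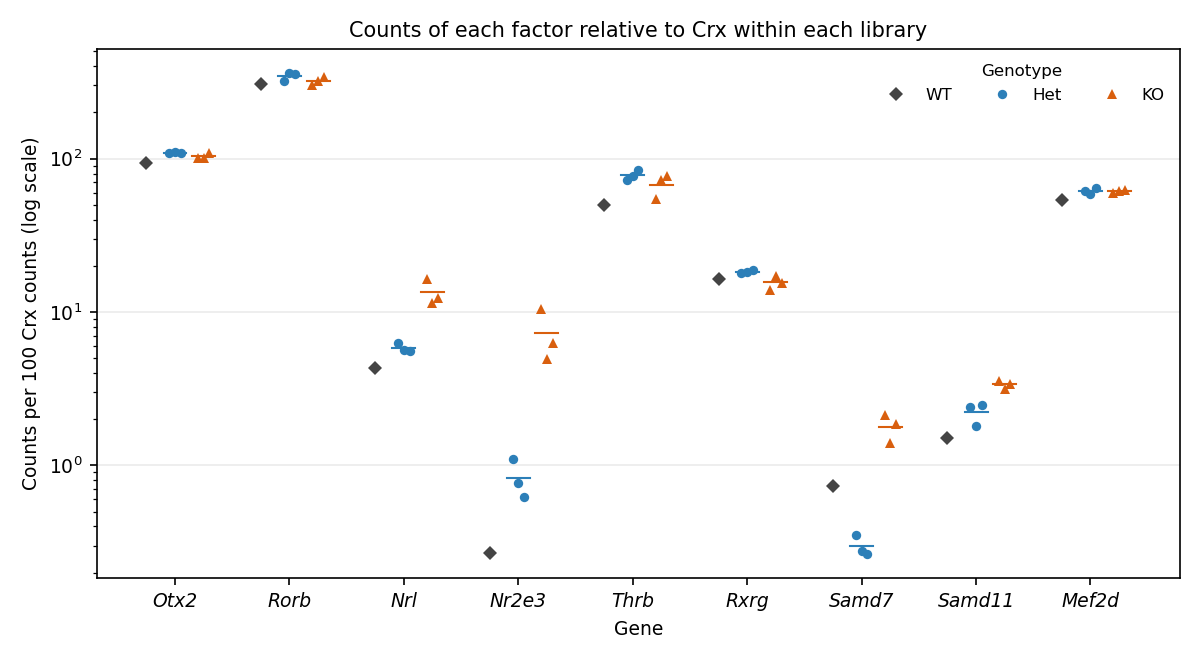
Counts of each factor per 100 counts of *Crx* in the same library (log scale), in the WT library (diamond), the Het libraries (circles) and the KO libraries (triangles), with lines at the means of Het and KO. *Nrl*, *Nr2e3*, *Samd7* and *Samd11* lie higher in KO, and *Otx2*, *Rorb*, *Thrb* and *Mef2d* overlap with Het.

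The KO libraries were uneven. KO1 was the highest of the 3 in 8 of the 10 factors, with *Thrb*, where it was the lowest, and *Rxrg* as the exceptions. KO2 was the lowest in 6. For *Nr2e3* the level in KO1 was 237% of that in KO2, for *Samd7* 169% and for *Nrl* 160%. The remaining *Ptbp1* ran in another order, highest in KO3 and lowest in KO2. Without KO1 the log2 fold change of *Nr2e3* was 2.87 (adjusted p = 0.0133, edgeR) and that of *Nrl* 1.15 (adjusted p = 0.0123, edgeR). The WT library was below all 6 other libraries in 5 factors, namely *Nrl*, *Nr2e3*, *Thrb*, *Samd11* and *Mef2d*. The KO mean was 28.9 times the WT value for *Nr2e3* and 3.29 times for *Nrl*, with no replicate of WT to give an error.

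Other regulators of photoreceptor fate had log2 fold changes below that of *Nrl* where they were called. Of 28 transcription factors and cofactors listed, all tested, 6 were higher and 1 lower in KO, and the median log2 fold change was 0.04. The shares called over all genes tested were 4.01% higher and 3.21% lower. *Esrrb*, a nuclear receptor of rods, rose by 1.02 on the log2 scale (adjusted p = 0.0120, edgeR), from 3.47 ± 0.0662 to 7.03 ± 1.33 CPM (SD, n = 3 each). *Prdm1*, which keeps precursors from bipolar fate, rose from 102 ± 13.8 to 163 ± 0.950 CPM (SD, n = 3 each), by 0.69 on the log2 scale (adjusted p = 0.00924, edgeR), and was at only 35.8 CPM in WT. *Neurod1*, a bHLH factor of photoreceptors, and *Rora*, a relative of *Rorb* that cones use, rose by 0.32 and 0.31 on the log2 scale (adjusted p = 0.00558 and 0.0112, edgeR). *Notch1*, whose receptor holds back photoreceptor fate, rose by 0.29 (adjusted p = 0.0130, edgeR). The gene that fell was *Atoh7*, needed for ganglion cells, with a log2 fold change of -0.81 (adjusted p = 0.00783, edgeR). *Pax6*, an abundant gene of the list, had a log2 fold change of -0.05 and did not pass the test. The number called was 4 without Het2.

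Genes that these factors control in mature photoreceptors were counted in the same fit. Of 11 tested rod genes 6 were higher in KO, of 8 tested cone genes 6, and of 11 tested genes shared by rods and cones 6, with 1 shared gene lower. Some of those called had few counts in Het1 to Het3: *Pde6b* had 6, 2 and 12, *Cngb1* 18, 14 and 14, and *Rcvrn* 14, 8 and 2. With at least 10 counts required in every library, 4 of 7 rod genes, 6 of 7 cone genes and 5 of 10 shared genes were higher, and 1 shared gene lower. Over all genes tested, 4.01% were called higher and 3.21% lower. The median log2 fold changes were 1.64, 0.65 and 0.55. The rod median is the value of *Pde6a*, with 3 counts in WT, 8, 1 and 7 in Het1 to Het3 and 22, 15 and 7 in KO1 to KO3. *Pde6a* was not called and passed the filter on low counts only through KO libraries. The rod median thus depends on a gene admitted by the group where it is high, and it only describes this list. Cone genes were among those called, while the cone factors *Thrb* and *Rxrg* were not. The cone gene calls depended on single libraries: the 6 became 0 without Het2, 0 without Het3 and 1 without KO2. In a test against the 1.2-fold limit 0 cone genes were called. *Gngt1* and *Sag*, the rod transducin gamma subunit and rod arrestin, rose by 2.41 and 2.40 on the log2 scale (adjusted p = 0.00480 and 0.0105, edgeR), from Het means of 0.216 and 0.384 CPM, both under the WT values of 0.652 and 0.982 CPM. *Rom1*, an outer segment membrane protein and the most abundant of the rod genes, rose by 1.07 (adjusted p = 0.0298, edgeR). In the cone list *Opn1sw* and *Pde6c*, the short-wavelength opsin and the cone phosphodiesterase, rose by 1.99 and 1.43 (adjusted p = 0.0259 for each, edgeR), and *Gnb3*, the most abundant, had 0.49 (adjusted p = 0.0702, edgeR). *Rp1* and *Pdc*, of the photoreceptor cilium and of phototransduction, rose by 2.09 and 1.24 (adjusted p = 0.0105 and 0.0174, edgeR), and the abundant *Rbp3*, the retinoid carrier, rose by 0.55 (adjusted p = 0.0443, edgeR). The shared gene that fell, *Impg2* of the matrix around photoreceptors, went from 77.6 ± 8.03 to 43.7 ± 6.89 CPM (SD, n = 3 each) and was at 43.5 CPM in WT, and is named here after its values were seen. Summed over each list, KO1 was the highest library for rod genes (43.6 CPM, against 26.8 and 26.4 CPM in KO2 and KO3 and 17.4 to 19.3 CPM in Het) and for cone genes (182 CPM, against 139 to 145 CPM in KO3 and KO2 and 83.9 to 105 CPM in Het). In all, 19 genes of these 3 lists were called, and the number was 2 without Het2, 5 without Het3 and 8 without KO2.

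**Figure D4:**
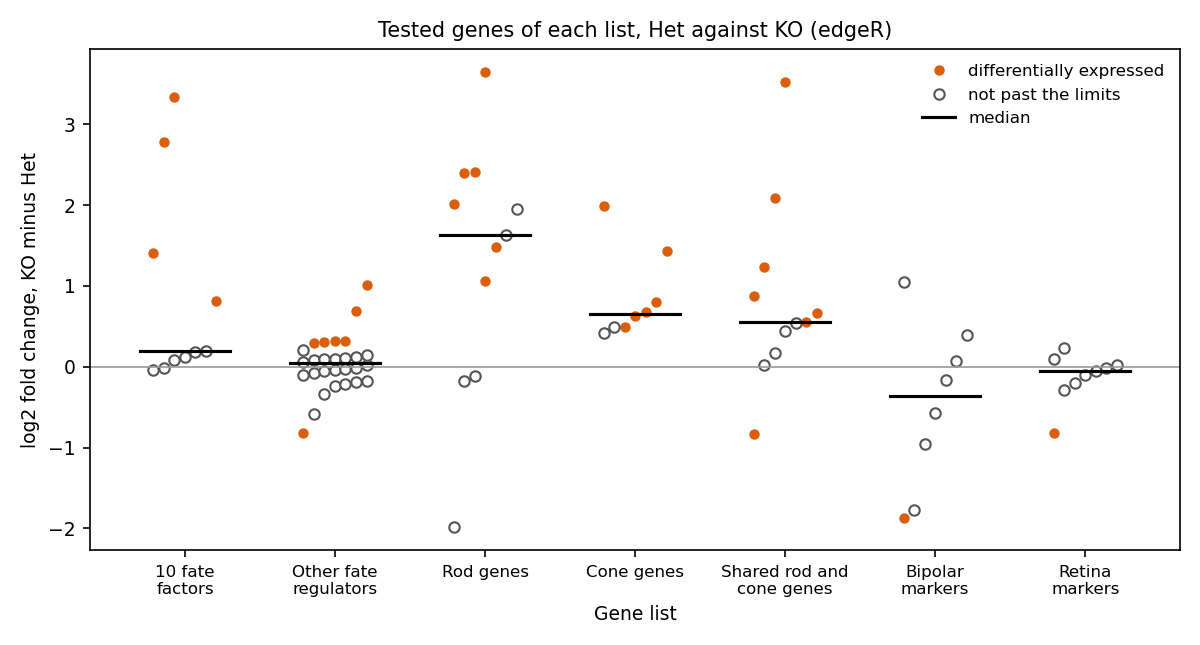
log2 fold changes between Het and KO (edgeR) of the tested genes of each list, 1 point per gene, with black lines at the medians. Filled points are differentially expressed. The rod genes have a median of 1.64, the cone genes of 0.65 and the shared genes of 0.55, and the other fate regulators of 0.04. The rod median is the value of *Pde6a*, a gene of few counts that passed the filter only through KO libraries.

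Genes whose patterns over the 7 libraries came closest to those of the factors were sought among genes with a mean of at least 1 CPM (13750 genes), by the root mean square difference of centred log2(CPM + 0.5) values. *Otx2* was closest to *Atp8a1*, *Gpatch11* and *Ctdspl*, at 0.0274, 0.0302 and 0.0313, and *Crx* to *Cmc2*, *C2cd2l* and *Noxo1*, at 0.0127, 0.0362 and 0.0379. *Nrl* was closest to *Tbr1*, a T-box factor of ganglion cells, to *D030068K23Rik* and to *Slc18a3*, the vesicular acetylcholine transporter, at 0.133, 0.136 and 0.142. The genes nearest to *Nr2e3* were *Gm12751*, *Opn1sw* and *Gm13443*, at 0.484, 0.485 and 0.497. The difference is not scaled by how far a gene varies, so it tends to be larger for genes with large changes. Its size therefore does not rank the factors by how closely other genes followed them. Among the factors themselves, *Otx2* was nearest to *Mef2d* and *Rorb*, at 0.0567 and 0.0578.

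Markers of other cells were read in the same libraries, because pigmented cells also express *Otx2*, and muscle *Mef2d* and *Rxrg*. Summed over 13 pigmented cell markers, of which *Pmel* was the most abundant, the level was 559 CPM in Het1, 38.4 and 72.6 CPM in Het2 and Het3, 25.5 to 69.0 CPM in KO and 40.3 CPM in WT. *Rpe65*, a gene of the pigment epithelium, had 0 counts in WT and Het and at most 2 in a KO library. Its near absence alone does not tell which pigmented cells were present. All other markers of this list but *Best1* were highest in Het1. Of the 12 tested, edgeR called 0 higher and 1 lower in KO, at an unadjusted p below 0.05 0 were higher and 4 lower, and DESeq2 called 0 higher and 1 lower. Het1 was also the Het library with the most *Otx2*. Without it the log2 fold change of *Otx2* was 0.16 (adjusted p = 0.172, edgeR). Summed over 12 muscle markers, led by *Myh3*, Het1 held 302 CPM and the other libraries 6.09 to 7.82 CPM, and *Tnnc2* had no more than 3 counts throughout. Of 11 tested, edgeR called 0, at an unadjusted p below 0.05 0 were higher and 7 lower, and DESeq2 called 0 higher and 0 lower. *Mef2d* and *Rxrg* were highest among the Het libraries in Het1. Without Het1 their log2 fold changes were 0.23 (adjusted p = 0.0551, edgeR) and -0.0031 (adjusted p = 0.982, edgeR). The 4 genes that rose were still called without Het1, with log2 fold changes of 3.66 for *Nr2e3*, 2.98 for *Samd7*, 1.51 for *Nrl* and 0.92 for *Samd11*. Markers of bipolar cells, a late product of *Otx2* and *Crx* activity, summed to 29.6 to 124 CPM in Het and to at most 47.8 CPM in KO, with *Trpm1*, which pigmented cells also express, the most abundant. Of the 8 listed, edgeR called 0 higher and 1 lower, at an unadjusted p below 0.05 2 were higher and 1 lower, and DESeq2 called 0 higher and 1 lower. Lens markers summed to 23.5 to 75.4 CPM in Het and 2.09 to 43.8 CPM in KO, with *Cryaa* the most abundant, and *Lim2* at 0. Of 8 tested, edgeR called 0, at an unadjusted p below 0.05 0 were higher and 2 lower, and DESeq2 called 0 higher and 1 lower. Over all genes tested, edgeR called 4.01% higher and 3.21% lower, and 29.7% had an unadjusted p below 0.05 in either direction. The counts of these short marker lists were not tested against those shares. The part of these cells in the results was not tested.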

How the data were processed

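Bulk RNA-seq of E16 mouse retina gave 7 libraries, 1 WT, 3 Het and 3 KO. The authors aligned reads to GRCm38 with STAR, run by rMATS-turbo, and obtained gene counts from featureCounts. The deposited values are these counts as whole numbers without normalization, 120593979 to 171117305 per library. Strand setting and treatment of multi-mapping reads are not given in the sources used here, so counts of overlapping genes and close copies are uncertain. Of the 48440 genes, 121 rows repeat a symbol.

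Genes kept by filterByExpr (20019) were scaled by TMM and fitted with edgeR 4.0.16 (glmQLFit, glmQLFTest) in R 4.3.3, with a mean per genotype over all 7 libraries, and KO was compared with Het. The Benjamini-Hochberg adjustment covered all genes tested. The standard error is the log2 fold change over the square root of F. Counts and ratios carry counting error as well as the spread between pools. Exon lengths come from GENCODE M21 (GRCm38), and 19931 tested genes have one. Replicates were not copies of each other: the squared differences of their counts were 14.3 to 55.0 times what counting error gives. The scripts were tested on simulated data.

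The 10 factors, the marker lists and the naming rule were chosen with earlier results of these data known. The rule names every factor, called or abundant regulators, the 2 called genes of largest change among those averaging 50 or more normalized counts, and the most abundant gene, of each of the rod, cone and shared lists, the most abundant marker of a cell type and the 3 genes nearest in pattern. Alternatives were DESeq2 1.42.0, RLE and upper-quartile scaling, other filters, the Het and KO libraries alone, a replicate block, each library left out, and other call rules, pseudocounts and reference genes. Some genes that this rule selects are not reported here.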

Additional observations from a re-analysis of the deposited data

How the results depend on the processing

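The 4 factors called higher in KO were 4 under DESeq2, RLE and upper-quartile scaling, both other filters, the Het and KO libraries alone and an adjusted p alone, and 3 in a test against the 1.2-fold limit. With 1 library left out the number ranged from 1 (without Het2) to 4, with 2 without Het3. Over all genes it ranged from 386 (without Het2) to 1674, with 496 without Het3 and 612 without KO2, and was 2221 with an adjusted p alone and 217 in the test against the limit. The 7 fate regulators became 4 without Het2, 4 to 8 with any library left out, and 2 against the limit. The 19 rod, cone and shared genes became 2 to 16 with a library left out, and 4 against the limit. The cause was not tested. The direction turned for *Thrb* without Het3 (log2 fold change 0.0028) and without KO1 (0.067), and for *Rxrg* without KO3 (0.015), none of them called, within leave-one-out ranges of -0.053 to 0.067 and -0.10 to 0.015. The ratio of *Samd11* to *Crx* between KO and Het, 1.53, ranged from 1.39 to 1.62 with a library left out, and that of *Mef2d*, 0.993, was 1.05 against *Otx2*. Whether the replicate numbers of Het and KO mark a shared litter or batch is not given in the sources used here. Deviations of same-numbered libraries from their group means correlated at -0.197, 0.159 and -0.0739, and those of differently numbered libraries at -0.304 to 0.262. Deviations from a mean of 3 libraries depend on each other, so these correlations cannot decide it. With the number as a replicate block, 1268 genes, 4 factors, 7 regulators and 18 rod, cone and shared genes were called. The genes nearest in pattern changed with the pseudocount and the filter, and for *Nrl* 0 of the 3 were the same at a mean of at least 5 CPM.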
